A study of Homo sapiens with 6 samples.

Results

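The 44 genes described here encode factors that make ribosomes in the nucleolus, together with subunits and initiation factors of RNA polymerase I. They were chosen by gene symbol for the known roles of their products, and all 44 were found among the 14987 genes listed. The data are RNA sequencing of HCT116 cells, a human line grown from a colorectal carcinoma, in 6 libraries made from RNA selected with oligo-dT, so the ribosomal RNA precursor itself was not measured. After 6 h of glucose deprivation there was 1 library of YAP knockdown cells with the construct shYAP1, 1 of YAP knockdown cells with the construct shYAP3 and 1 of wild type (NC) cells. The same lines in control medium gave the other 3 libraries. The design asks how cells respond to loss of glucose, and whether YAP, the coactivator restrained by the Hippo kinases, bears on that response. The labels state neither the promoter of the constructs nor whether a line is 1 clone, and they name no replicate cultures, so p-values measure the spread between these libraries only.

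Ribosome synthesis starts when RNA polymerase I, brought to the ribosomal DNA by the initiation factors UBTF, the SL1 complex and RRN3, transcribes a long precursor RNA. Small nucleolar ribonucleoproteins (snoRNPs) then modify this precursor, and large assemblies of factors fold and cut it into the parts of the small (40S) and large (60S) subunits. It is one of the most costly processes of a growing cell. In colorectal cancer cells it is known to be driven by the transcription factor MYC, which binds the DNA hexamer CACGTG.

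Each library held between 16912634 and 22161075 listed reads, and the members were well covered, with at least 486 reads for any member in any library. Every listed gene had reads in the NC control library, while 535 to 942 stood at 0 in each of the others. Shares over all genes are therefore of genes seen in that library. Values are the authors' normalized signal per gene, and a lower value in a bulk library does not tell fewer cells with a transcript from less of it in each cell. The target of the knockdown, YAP1, stood at 20.3 in shYAP1, 18.2 in shYAP3 and 154 in NC cells after deprivation, and at 35.7, 38.2 and 188 in control medium in the same order. Colorectal epithelial markers were present in every library, with a summed value of 5338 to 6311 after deprivation and 3289 to 4561 in control medium. Of the fibroblast markers 3 of 6 were in the table, with sums of 3.05 to 6.33 after deprivation and 8.14 to 10.3 in control medium. Of the leukocyte markers 3 of 5 were, with 12.1 to 23.9 and 8.05 to 13.2, and of the endothelial markers 3 of 5, with 3.74 to 7.96 and 3.61 to 4.87. The others, among them COL1A2, PTPRC and PECAM1, were not among the genes analysed here, and the part of these markers in the results was not tested. The shYAP3 deprived library stood apart. Its median deviation from the gene mean was 0.47 on the log2 scale in the length decile with the shortest transcripts and −0.30 in that with the longest. The calls without it are given with the other libraries left out.

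Promoter sequences from RefSeq (build GRCh38.p14, 250 bases before to 50 after the gene start) were matched to 38 of the 44 members by symbol. The E-box hexamer CACGTG, which reads the same on both strands and was the one motif searched, was found in the promoter of 15 of the 38 (39.5%). It was found in 12.7% of the 9276 tested genes with a promoter sequence and in 7.26% of all 35116 promoter sequences in the table. A match is a run of letters in a window and not a site shown to be bound. The bases upstream of the gene start are shown for UTP20, whose transcript fell after deprivation, and for DDX21, whose estimate was positive. Both have the hexamer, in capitals, within 31 bases of the start.
UTP20, chr12:101279855-101280104, plus strand: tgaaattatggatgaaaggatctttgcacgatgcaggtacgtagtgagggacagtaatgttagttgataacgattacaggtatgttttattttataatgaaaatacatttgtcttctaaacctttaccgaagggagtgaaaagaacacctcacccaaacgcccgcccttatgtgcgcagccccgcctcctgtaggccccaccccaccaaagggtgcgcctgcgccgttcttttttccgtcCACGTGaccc
DDX21, chr10:68956397-68956646, plus strand: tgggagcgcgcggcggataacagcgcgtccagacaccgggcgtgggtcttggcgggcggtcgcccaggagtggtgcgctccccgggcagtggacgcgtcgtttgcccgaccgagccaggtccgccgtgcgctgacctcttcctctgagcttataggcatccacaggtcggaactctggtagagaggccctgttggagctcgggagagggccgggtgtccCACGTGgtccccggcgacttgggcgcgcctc

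The hexamer is shown with 12 bases on each side for the other members that have it and whose values in every library are given, so that its flanks can be compared. In these 7 it begins between 5 bases before and 29 bases after the gene start.
BYSL, chr6:41921515-41921544, plus strand: ttcttcagtcccCACGTGcgatccttcccg
FBL, chr19:39846356-39846385, minus strand: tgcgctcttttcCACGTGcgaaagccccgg
RRP9, chr3:51941892-51941921, minus strand: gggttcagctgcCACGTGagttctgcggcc
WDR43, chr2:28894658-28894687, plus strand: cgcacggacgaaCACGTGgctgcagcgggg
GNL3, chr3:52686026-52686055, plus strand: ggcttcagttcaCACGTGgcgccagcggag
NOL6, chr9:33473894-33473923, minus strand: ggcatttccgccCACGTGggaagctatgag
PES1, chr22:30591880-30591909, minus strand: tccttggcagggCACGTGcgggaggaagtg

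After glucose deprivation members were called in both directions, and how many in each depended on the scaling. Of the 44 members, 4 rose, TAF1D, NPM1, NOB1 and BYSL, and 5 fell, POLR1A, UBTF, UTP20, RRS1 and DKC1, by limma at an adjusted p of 0.05 over 12263 genes. That is 20.5% of the members, against 32.1% of all genes tested (16.5% higher and 15.6% lower). The members' share was below that of all genes with the deposited scaling and above it when values were scaled to listed reads (40.9% against 37.1%), and neither difference was tested. In edgeR the same 9 passed (background 15.1% higher and 16.2% lower), and in DESeq2 the same 9 and DDX21 and MYBBP1A (17.1% and 16.6%). The other 35 did not pass, which does not show that they were unchanged. No member changed by 2-fold or more on the log2(value + 1) scale with an adjusted p under 0.05, against 5.14% of all genes. The median log2 fold change of the members was 0.09, against 0.05 over all genes. Their median absolute change was 0.27, against 0.33.

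**Figure D1:**
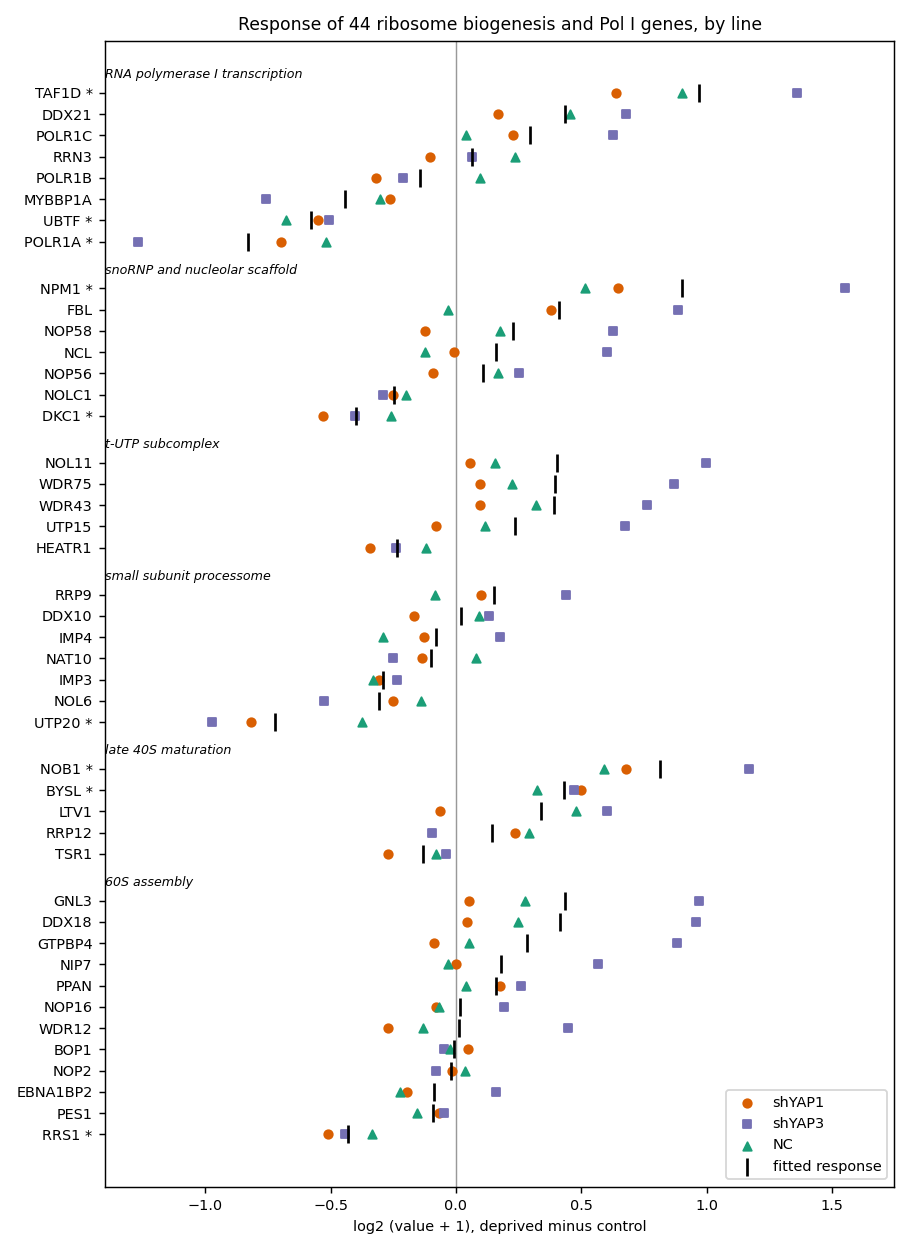
Log2(value + 1) in the deprived minus the control library of each line (points) and the fitted response (black tick) for the 44 genes, grouped by role; an asterisk marks limma adjusted p under 0.05. The fitted responses run between −0.83 and 0.97, and the shYAP3 points of 29 of 44 genes are the most positive of the 3 lines.

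The 3 lines gave different medians. The median response of the members was −0.08 in shYAP1, 0.22 in shYAP3 and 0.04 in NC cells, against 0.03, 0.04 and 0.02 for all genes tested. The estimate was positive for 16 of 44 members in shYAP1, 27 in shYAP3 and 23 in NC cells. Of all 12263 genes tested it was positive for 6471, 6445 and 6404 in the same order. In 29 of 44 members (65.9%) shYAP3 had the most positive response of the 3 lines, against 41.4% of all genes. The response had 1 sign in all 3 lines in 24 members, against 66.3% of all genes. Every deprived library lay above every control library in 8 members (background 26.8%) and below in 11 (background 23.8%).

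Among the factors of RNA polymerase I transcription, 1 of 8 rose, 2 fell and 5 did not pass (37.5% called, against 32.1% of all genes). POLR1A (ENSG00000068654), the largest catalytic subunit, stood at 80.6 in shYAP1, 61.3 in shYAP3 and 113 in NC cells after deprivation, against 131, 149 and 162 in control medium. All 3 deprived libraries lay below all 3 control libraries, with shYAP3 lowest, and the level fell to 0.563 of control (log2 −0.83, SE 0.16, limma adjusted p = 0.0076). UBTF (ENSG00000108312), the factor that bends and holds ribosomal DNA open, stood at 121, 130 and 122 after deprivation, against 177, 185 and 196 in control medium. Here the 3 lines moved by nearly the same amount, and the level fell to 0.669 of control (log2 −0.58, SE 0.13, limma adjusted p = 0.011).

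TAF1D (ENSG00000166012), a subunit of the SL1 initiation complex, moved the other way. It stood at 224 in shYAP1, 353 in shYAP3 and 194 in NC cells after deprivation, against 144, 137 and 103 in control medium, and rose 1.96-fold (log2 0.97, SE 0.18, limma adjusted p = 0.0057). TAF1D passed without each of the 6 libraries in turn and in 11 other settings, the one among the 9 called members that did so, though not when a fold of at least 2 was required, where no member passed. DDX21, an RNA helicase that couples transcription to processing, stood at 503, 688 and 622 after deprivation, against 448, 429 and 453 in control medium. The groups did not overlap, but DDX21 did not pass (log2 0.43, SE 0.16, limma adjusted p = 0.060). MYBBP1A, a nucleolar protein that restrains ribosomal DNA transcription, narrowly missed the threshold in the other direction (log2 −0.44, SE 0.16, limma adjusted p = 0.061) and passed with the line as a block. The second-largest subunit POLR1B (log2 −0.15), POLR1C, a subunit shared with RNA polymerase III (0.30), and the initiation factor RRN3 (0.06) did not pass. RRN3 has 2 pseudogenes of its name in the annotation, with which reads can be shared. In all, 10 members have such pseudogenes, among them DDX18 with 5 and NCL with 2.

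Of the 7 snoRNP and abundant nucleolar proteins, 1 rose and 1 fell (28.6% called, against 32.1% of all genes). NPM1 (ENSG00000181163), nucleophosmin, a chaperone of late precursor particles, stood at 2814 in shYAP1, 4948 in shYAP3 and 2358 in NC cells after deprivation, against 1799, 1688 and 1652 in control medium. Every deprived library was above every control library, and the shYAP3 library was far above the other two (rise of 1.87-fold, log2 0.90, SE 0.24, limma adjusted p = 0.021). With quantile normalization the log2 fold change of NPM1 was 0.21 (adjusted p = 0.28), and 45 pseudogenes carry its name, so that its count may include or lose shared reads. DKC1 (ENSG00000130826), the pseudouridine synthase of H/ACA snoRNPs, stood at 146, 150 and 178 after deprivation, against 211, 198 and 214 in control medium. It fell to 0.759 of control (log2 −0.40, SE 0.13, limma adjusted p = 0.043), but not with the line as a block (adjusted p = 0.052).

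FBL, fibrillarin, the methyltransferase of box C/D snoRNPs, stood at 349 in shYAP1, 472 in shYAP3 and 278 in NC cells after deprivation, against 268, 255 and 284 in control medium. It was higher in both shYAP lines and slightly lower in NC cells, and did not pass (log2 0.41, SE 0.18, limma adjusted p = 0.11). NOLC1, a phosphoprotein that escorts snoRNPs, stood at 464, 433 and 492 after deprivation, against 553, 530 and 565 in control medium. Its groups did not overlap, yet it did not pass (log2 −0.25, SE 0.13, limma adjusted p = 0.17). The box C/D core proteins NOP56 (0.11) and NOP58 (0.23) and nucleolin, NCL (0.16), did not pass. NCL stood at 1740, 2474 and 1639 after deprivation, against 1749, 1627 and 1784 in control medium, so that only the shYAP3 value stood above all 3 control values. With quantile normalization NCL passed as lower, so its direction depended on the scaling.

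**Figure D2:**
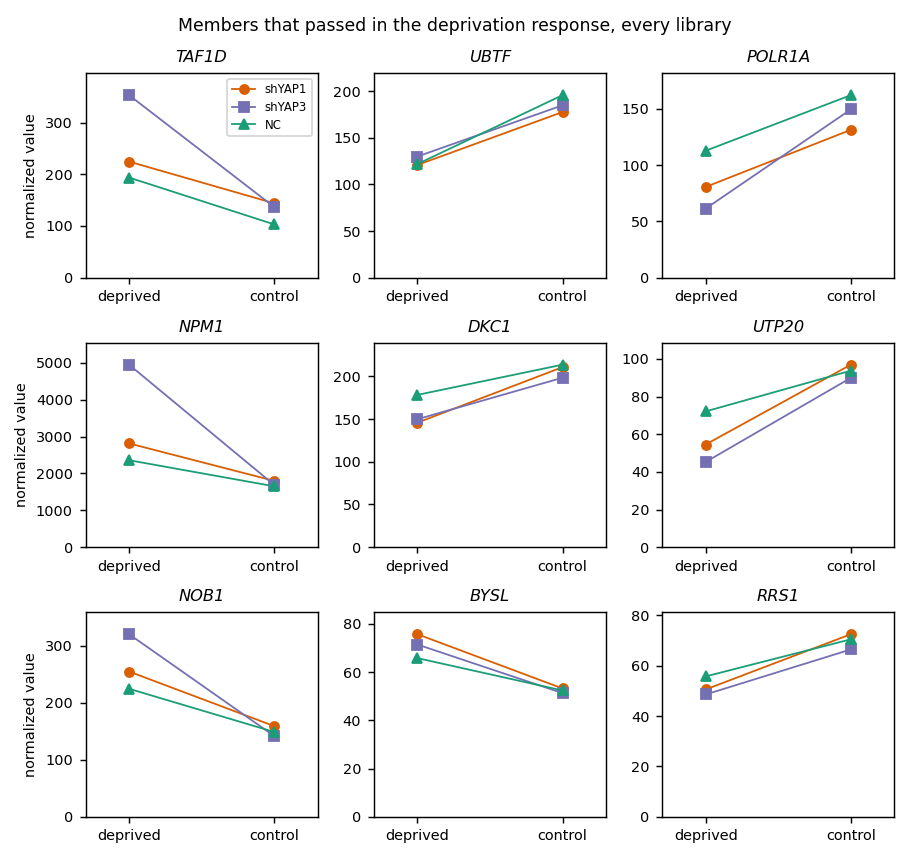
Normalized value (vertical axis, from 0) of the 9 members that passed in the deprivation response, in the deprived and the control library of each line (points joined by a line). In each panel the 3 deprived values lie on 1 side of the 3 control values, and the shYAP3 deprived library is the extreme one in TAF1D, POLR1A, NPM1, UTP20, NOB1 and RRS1.

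The t-UTP subcomplex opens assembly of the small subunit and is needed for transcription of the precursor. None of its 5 members passed by limma (1 at an unadjusted p under 0.05), against 32.1% of all genes. None passed by edgeR or DESeq2. WDR43 stood at 227 in shYAP1, 309 in shYAP3 and 235 in NC cells after deprivation, against 212, 182 and 188 in control medium (log2 0.39, SE 0.16, limma adjusted p = 0.083). WDR75 stood at 141, 223 and 120, against 132, 122 and 102 (log2 0.40, SE 0.18, limma adjusted p = 0.12). In both the shYAP3 value was the highest and the shYAP1 values differed little between media. NOL11 (0.40) and UTP15 (0.24) had the same shape, whereas HEATR1, the one with the longest transcript of the 5, stood at 174, 168 and 187, against 221, 198 and 203 (log2 −0.23, SE 0.13, limma adjusted p = 0.19).

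In the rest of the small subunit processome 1 of 7 members fell and 0 rose (14.3% called, against 32.1% of all genes). UTP20 (ENSG00000120800), a large scaffold protein, stood at 54.5 in shYAP1, 45.3 in shYAP3 and 72.1 in NC cells after deprivation, against 96.9, 89.9 and 93.7 in control medium. The shYAP lines lost more than NC cells, and the level fell to 0.606 of control (log2 −0.72, SE 0.16, limma adjusted p = 0.011). IMP3, a component of the U3 snoRNP, stood at 80.8, 74.2 and 75.1 after deprivation, against 100.1, 87.5 and 94.7 in control medium (log2 −0.29, SE 0.13, limma adjusted p = 0.11). RRP9, a protein bound to the U3 RNA, stood at 81.1, 96.3 and 80.6, against 75.7, 70.7 and 85.5 (log2 0.15, SE 0.14, limma adjusted p = 0.44). The groups overlapped for RRP9 but not for IMP3. DDX10, an RNA helicase, had 109.7, 125 and 118 after deprivation and 123, 114 and 111 in control medium (log2 0.02, limma adjusted p = 0.92). NOL6, the counterpart of yeast Utp22 (log2 −0.31), IMP4 (−0.08) and NAT10, which acetylates ribosomal RNA (−0.10), did not pass.

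The factors that finish the small subunit had 2 of 5 members higher and 0 lower (40% called, against 32.1% of all genes). NOB1 (ENSG00000141101), the nuclease that makes the last cut of the small subunit RNA, stood at 255 in shYAP1, 320.2 in shYAP3 and 224 in NC cells after deprivation, against 159, 142 and 149 in control medium. It rose 1.76-fold (log2 0.81, SE 0.15, limma adjusted p = 0.0062), in every line. BYSL (ENSG00000112578), bystin, which stays with the particle until export, stood at 75.7, 71.5 and 65.8 after deprivation, against 53.2, 51.3 and 52.4 in control medium. It rose 1.35-fold with little spread between the lines (log2 0.43, SE 0.13, limma adjusted p = 0.031). BYSL did not pass in limma when scaled to listed reads (log2 0.13, adjusted p = 0.50) or with quantile normalization (log2 0.34, adjusted p = 0.062). TSR1, a GTPase-like factor of late particles, stood at 219.7, 221 and 227, against 266, 227 and 239.9 (log2 −0.13, SE 0.13, limma adjusted p = 0.47). RRP12, an export factor (0.14), and LTV1 (0.34) did not pass.

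Of the 12 factors of 60S assembly, 0 rose and 1 fell (8.33% called, against 32.1% of all genes). RRS1 (ENSG00000179041), which helps to place the small ribosomal RNA of the large subunit, stood at 50.6 in shYAP1, 48.6 in shYAP3 and 55.8 in NC cells after deprivation, against 72.5, 66.5 and 70.5 in control medium. Every deprived value lay below every control value, and over the 3 lines the level fell to 0.742 of control (log2 −0.43, SE 0.13, limma adjusted p = 0.032). PES1, BOP1 and WDR12 form the PeBoW complex, and PES1 stood at 206, 199 and 196 after deprivation, against 216, 206 and 218 in control medium. For PES1 (log2 −0.09, SE 0.13, limma adjusted p = 0.60), BOP1 (−0.01) and WDR12 (0.01) the estimates were close to 0.

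GNL3, nucleostemin, a nucleolar GTPase of growing cells, stood at 306 in shYAP1, 504 in shYAP3 and 283 in NC cells after deprivation, against 295, 257 and 234 in control medium (log2 0.43, SE 0.19, limma adjusted p = 0.11). DDX18, an RNA helicase, stood at 259, 441 and 265, against 251, 227 and 223 (log2 0.42, SE 0.20, limma adjusted p = 0.13). Both had a large step in shYAP3 and a small one in shYAP1 cells, as did the GTPase GTPBP4 (0.88 in shYAP3, −0.09 in shYAP1). The remaining 5, the RNA methyltransferase NOP2 and the processing factors NOP16, PPAN, NIP7 and EBNA1BP2, had fitted log2 changes between −0.09 and 0.18, and none passed.

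The calls depended on the libraries and on the scaling. TAF1D passed without any single library, whereas NOB1 (limma adjusted p = 0.052) and POLR1A (0.058) did not pass without the shYAP3 control library, nor did UTP20 without the shYAP1 (0.077) or the shYAP3 control library (0.068). UBTF, NPM1, BYSL and RRS1 each lost their call without the NC deprived, the NC control, the shYAP1 control or the shYAP3 control library, with a highest limma adjusted p of 0.077, 0.098, 0.18 and 0.19. DKC1 did not pass without those 4 or without the shYAP1 deprived library (highest adjusted p = 0.22). Without the shYAP3 deprived library all 9 still passed, with log2 fold changes of 0.77 for TAF1D, 0.61 for NPM1 and −0.67 for POLR1A, and 3 more members did, DDX21, MYBBP1A and RRP12 (6 higher and 6 lower, against 23.4% and 19.8% of all genes). Without the shYAP1 deprived library 11 were higher and 5 lower, against 21.4% and 19.4% of all genes, with DDX18, DDX21, GNL3, LTV1, MYBBP1A, NOL11, WDR43 and WDR75 gained. When values were scaled to listed reads, the median over all genes was −0.24 in place of 0.05, and 3 members were higher and 15 lower, against 6.11% and 31.0% of all genes. With quantile normalization 2 were higher and 11 lower, against 14.7% and 17.7%. The median of the members stood 0.04 above that of all genes as deposited, 0.02 above it when scaled to listed reads and 0.14 below it with quantile normalization (difference −0.14).

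Members with longer transcripts had lower responses. Over 43 members with a transcript length, Spearman's rho between length and response was −0.51 in shYAP1, −0.39 in shYAP3 and −0.19 in NC cells. Over 12107 tested genes it was −0.33, −0.39 and −0.10. These are descriptions across genes that share the same libraries. The longest members, POLR1A with 12749 bases and UTP20 with 9025, had the lowest fitted responses. Of those that rose, TAF1D has 2082, BYSL 2029, NPM1 1758 and NOB1 1734. Of the others that fell, UBTF has 4997, DKC1 3079 and RRS1 1706, fewer than any that rose. The long HEATR1 (8447), WDR12 (8100) and DDX10 (6707) had fitted log2 changes of −0.23, 0.01 and 0.02. With trends in length and GC content removed in each library, 6 of 43 members were higher and 7 lower, against 17.7% and 19.0% of all genes. POLR1A (log2 −0.47), UTP20 (−0.62), TAF1D (0.63), NPM1 (0.54) and NOB1 (0.66) still passed in limma, and UBTF did not (−0.25, adjusted p = 0.15).

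**Figure D3:**
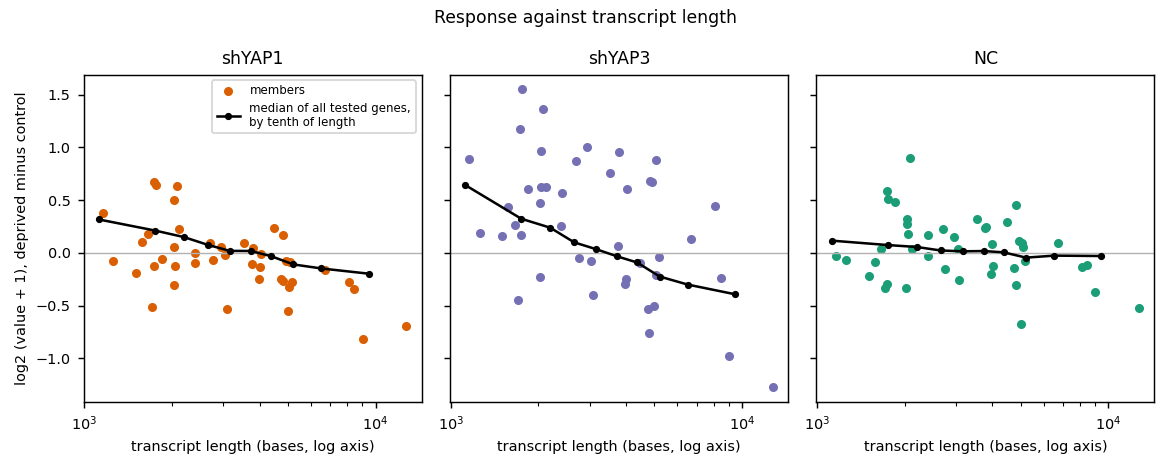
Log2(value + 1) in the deprived minus the control library against transcript length (log axis) in each line; points are 43 members and the black line joins the medians of all tested genes by length decile. The line runs down to −0.39 in the longest decile in shYAP3 cells, and stays near 0 in NC cells (−0.03).

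Levels, host genes and promoters played no part in the choice of members. Per kilobase of transcript, averaged over the 6 libraries, NPM1 (1447), NCL (455) and FBL (274) had the highest levels and UTP20 (8.36) and POLR1A (9.12) the lowest. Genes of small nucleolar RNAs lie within 11 of 43 members on the same strand (25.6%), TAF1D with 8, GNL3 with 6 and NOP56 with 5 among them, against 1.80% of 12107 tested genes. Of these 11 hosts, 1 rose (TAF1D) and 1 fell (DKC1), with a median log2 fold change of 0.23, against 67 higher, 23 lower and a median of 0.21 for all 218 hosts among the tested genes. The 15 members with the hexamer had a median of −0.02, with 1 higher (BYSL) and 1 lower (UTP20). The 23 with a promoter sequence and no hexamer had a median of 0.11, with 3 higher and 3 lower. Over all genes tested 16.5% were higher and 15.6% lower. Calls among all tested genes with the hexamer were not counted, and the difference between the 15 and the 23 was not tested. A gene on the opposite strand overlaps 22 of 43 members, and as a strand setting was not given in the sources used here, reads of such pairs cannot be told apart. Of the called members, TAF1D (4 such genes), UBTF (2) and NOB1 (1) are among them.

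The 44 members took 1.06% of listed reads in shYAP1, 1.34% in shYAP3 and 1.07% in NC cells after deprivation, against 1.17%, 1.16% and 1.13% in control medium. The share was higher after deprivation in shYAP3 cells and lower in the other lines. Without NPM1 and NCL, the most abundant members, set aside after their values were seen, the shares were 0.630%, 0.704% and 0.675% after deprivation, against 0.771%, 0.765% and 0.746% in control medium, lower in every line. A share of reads depends on what all other genes did.

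Other genes of the pathway were also called in both directions, with more higher than lower on the deposited values, the only scaling in which they were counted. Another 5 lists of ribosome biogenesis genes were drawn up by function, with earlier results of these data known. Of their 122 tested genes 28 rose and 10 fell, against 16.5% higher and 15.6% lower over all genes. In either direction 31.1% were called, against 32.1% of all genes. The median log2 fold change of the 122 was 0.19, against 0.05 over all genes. Their median response was 0.06 in shYAP1, 0.38 in shYAP3 and 0.12 in NC cells. The shYAP3 response was the most positive of the lines in 71.3% of the 122, against 41.4% of all genes. The estimate was positive for 82 of the 122, against 6602 of all 12263 genes, and these differences were not tested. Of 10 further RNA polymerase I factors 2 rose and 1 fell (30% called). POLR1D, a subunit shared with RNA polymerase III, rose 1.63-fold and TAF1A, of SL1, 1.45-fold, while CD3EAP, the polymerase-associated factor now named POLR1G, fell to 0.698 of control (limma adjusted p = 0.015, 0.034 and 0.018). Of 10 further snoRNP factors 0 passed in limma, with 2 at an unadjusted p under 0.05.

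Of 39 further 40S factors 9 rose and 2 fell (28.2% called, against 32.1% of all genes). The kinase RIOK2 rose 1.90-fold and DNTTIP2 1.80-fold, while the helicase DHX37 fell to 0.641 and UTP3 to 0.740 of control (limma adjusted p = 0.012, 0.012, 0.016 and 0.038). Of 47 further 60S factors 11 rose and 6 fell (36.2% called). RSL24D1, a factor of late 60S particles, stood at 335 in shYAP1, 594 in shYAP3 and 273 in NC cells after deprivation, against 179, 149.9 and 146 in control medium, and rose 2.39-fold (limma adjusted p = 0.0051). GLTSCR2, now NOP53, rose 1.73-fold (limma adjusted p = 0.0048), and RRP1B and the kinase NOL9 fell to 0.544 and 0.577 of control (0.0082 and 0.011). Of 16 exosome and nuclease genes 6 rose and 1 fell (43.8% called). EXOSC1 rose 1.67-fold and DIS3 1.42-fold, while EXOSC6 fell to 0.635 of control (limma adjusted p = 0.018, 0.027 and 0.037).

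YAP knockdown left no member past the threshold. Over both media, 0 of 44 members passed for shYAP against NC by limma (3 at an unadjusted p under 0.05), and 0 did by edgeR or DESeq2. The background was 0.00815% of genes in limma and in edgeR, which in limma is YAP1 alone, and 0.0163% higher and 0.0408% lower in DESeq2. The 3 members with the smallest p were TAF1D, POLR1A and NOL6. TAF1D was higher in shYAP than in NC cells in each medium, with a log2 difference of 0.49 (SE 0.19, limma adjusted p = 0.58). POLR1A was lower in each medium (log2 −0.44, SE 0.17, limma adjusted p = 0.58). NOL6 stood at 44.8 in shYAP1, 33.7 in shYAP3 and 55.2 in NC cells after deprivation, and at 53.5, 49.0 and 61.0 in control medium, lowest in shYAP3 (log2 −0.37, SE 0.16, limma adjusted p = 0.58). The median log2 difference of the members was 0.04, against −0.01 for all genes.

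**Figure D4:**
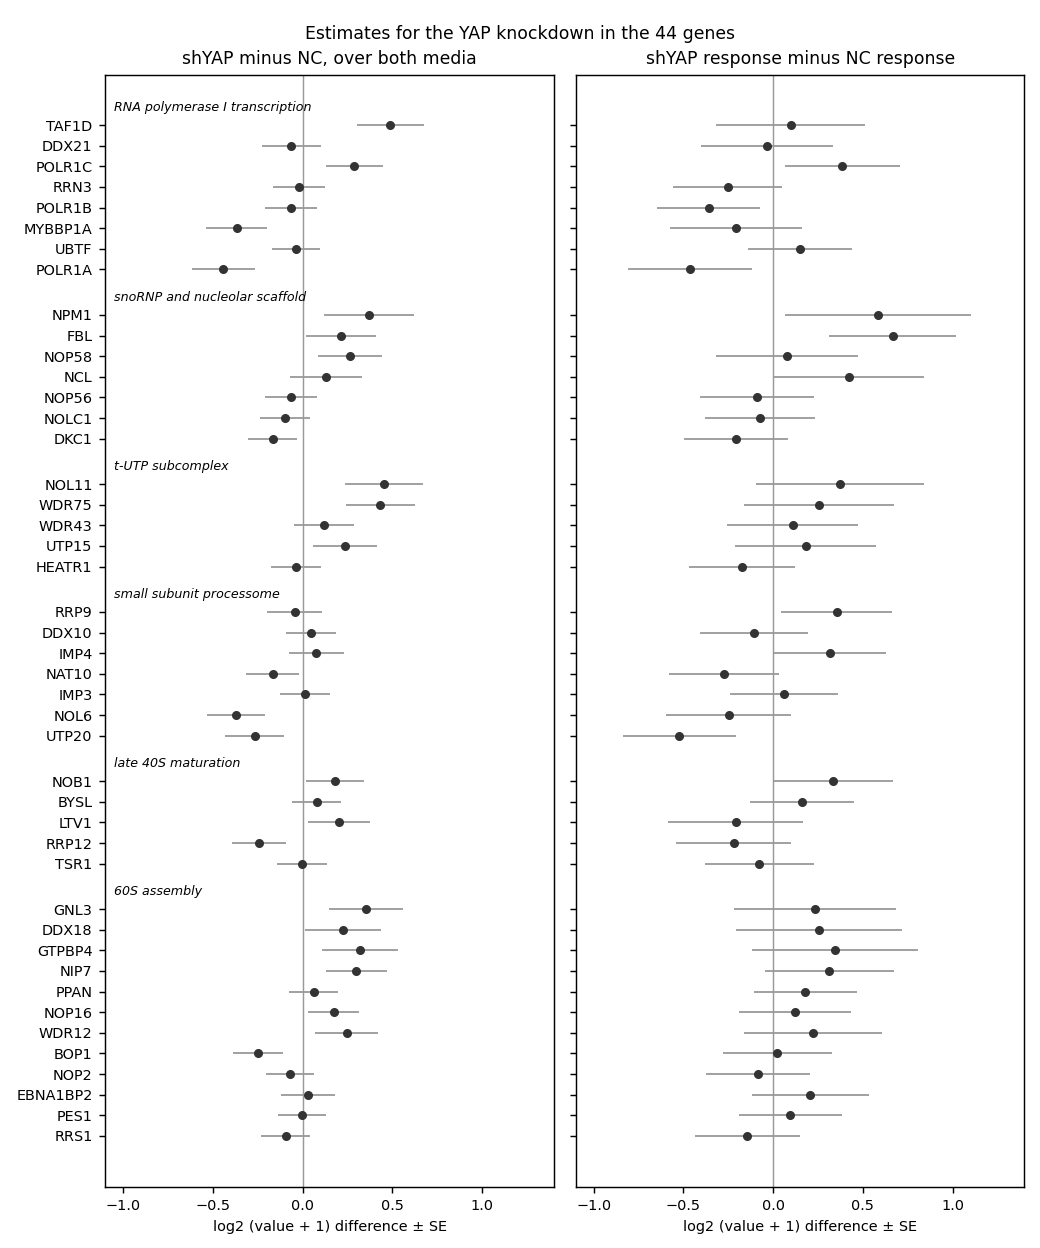
Fitted log2(value + 1) differences with standard errors for the 44 genes: shYAP minus NC over both media (left) and the shYAP response to deprivation minus the NC response (right). The estimates lie between −0.44 and 0.49 on the left and between −0.52 and 0.67 on the right, and none passed.

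The response to deprivation was not shown to differ between shYAP and NC cells in any member. By limma 0 of 44 passed in the difference of the responses (0 at an unadjusted p under 0.05), and 0 did by edgeR or DESeq2. The background was 0.0% of genes in limma and edgeR and 0.00815% in DESeq2. The estimates with the smallest p were those of FBL, UTP20 and POLR1A. For FBL the shYAP response exceeded the NC response by 0.67 on the log2 scale (SE 0.35, unadjusted p = 0.10, limma adjusted p = 1). For UTP20 it was lower by a log2 difference of −0.52 (SE 0.31, unadjusted p = 0.14, limma adjusted p = 1), and for POLR1A of −0.46 (SE 0.34, unadjusted p = 0.22, limma adjusted p = 1). With 1 NC library in each medium, the spread came from the shYAP libraries alone. Without the shYAP1 deprived library, where shYAP3 alone stands for deprived shYAP cells, 11 members were higher and 2 lower in this difference, against 12.5% and 9.8% of all genes.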

How the data were processed

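The table the authors deposited holds a normalized signal for each gene; the scaling, counter, annotation and strand setting are not given in the sources used here. Bowtie2, BWA and hg19 are named, without roles, per the submitters' processing notes. Dividing each library by the worth of 1 read (0.0406 to 0.0693) gave whole reads for 100% of values (tolerance 0.01 read); a count of 0 allows up to 3 reads (0.122 to 0.208), for counting error only.

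Tests used limma 3.58.1 in R 4.3.3, with its trended prior, on log2(value + 1), which understates changes of low genes. All 44 members were among the 12263 genes that reached 1 in 2 or more libraries, over which the Benjamini-Hochberg adjustment was made. Response and knockdown came from an additive model of genotype and medium, and the difference of the responses from 1 mean per genotype and medium. The script was tested on simulated data that held planted changes but no further difference between lines, length trend or scaling shift.

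As the deposited values are normalized, edgeR (4.0.16) and DESeq2 (1.42.0) on recovered reads were alternatives; edgeR called 1856 genes higher and 1992 lower in the response. Other alternatives were quantile normalization, scaling to listed reads, a pseudocount of 0.1, no filter, no trend, length and GC trends removed, the line as a block, means over groups, a minimum fold of 2 and leaving out each library. Same-numbered libraries come from the same line, and their deviations from the medium means correlated at 0.01 (shYAP1), 0.33 (shYAP3) and 0.46 (NC). Length and GC content come from the longest protein-coding transcript in GENCODE v29 (GRCh38), matched by identifier for 98.0% of genes and 43 members (not BOP1).

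Members, lists and tests were chosen with earlier results of these data known. Values in every library are given for the 2 members of each role with the smallest p in each direction of the response and the 3 with the smallest p in the other comparisons; of other lists, up to 2 called genes in each direction are named; 1 such gene is not reported here.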

Additional observations from a re-analysis of the deposited data

How the results depend on the processing

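In the response, leaving out 1 library gave 1 to 11 members higher and 0 to 6 lower (all genes 473 to 2874 and 587 to 2432), with a member median of 0.03 to 0.14. Averaging the NC response with that of shYAP cells gave 2 members higher and 3 lower. Quantile normalization gave 2 and 11, and 15 were lower after scaling to listed reads. With a fold of at least 2 there were 0 higher and 0 lower members and 328 and 302 genes. All genes higher and lower numbered 749 and 3802 scaled to listed reads and 745 and 862 as the mean of responses. The member median was −0.13 after quantile normalization and −0.22 after scaling to listed reads. In the difference of the responses, leaving out 1 library gave 0 to 11 members higher and 0 to 2 lower, and the knockdown gave 0 members in every setting run. The cause of these shifts was not tested; leaving out a library also leaves fewer libraries to test.

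No member called by limma over all 6 libraries as deposited changed direction in any setting run. Sign changes of the others are listed only for members whose values were chosen for print by the smallest p. Among these the sign turned for RRP9 (−0.15 scaled to listed reads, −4.5e-05 with length and GC trends removed, also with the replicate block). It turned for TSR1 (0.13) and NOL6 (0.03) with those trends removed, with or without the block. For DDX10 it turned in several settings (−0.15 with quantile normalization, −0.29 scaled to listed reads, −0.0076 in edgeR, −0.0083 in DESeq2, −0.040 with the trends removed, with or without the block, and −0.025 to 0.083 without 1 library). NCL, outside that choice and at 0.16 as deposited, passed as lower with quantile normalization.

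With the line as a replicate block, 4 members were higher and 5 lower. DKC1 did not pass (adjusted p = 0.052) and MYBBP1A did, and the block changed no other call of a member. NC has 1 library per medium, and every member had at least 486 reads in each library.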

Other observations

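Genes of the MYC network, which acts on ribosome factors, were called in both directions. MYC (ENSG00000136997) stood at 465 in shYAP1, 364 in shYAP3 and 572 in NC cells after deprivation, against 270, 252 and 241 in control medium, and rose 1.80-fold (log2 0.85, SE 0.17, limma adjusted p = 0.0082). MXD1, a MAX partner that represses MYC targets, stood at 49.8, 28.4 and 42.5 after deprivation, against 12.1, 7.95 and 10.7 in control medium, and rose 3.61-fold (log2 1.85, limma adjusted p = 0.0013). MGA, another MAX partner, fell to 0.618 of control (limma adjusted p = 0.011). In all, 2 of 9 genes of this network rose and 1 fell (33.3% called, against 32.1% of all genes), with a median log2 fold change of 0.14.

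RNA polymerase III makes the smallest ribosomal RNA and transfer RNAs. Of 21 genes of this polymerase and its factors 3 rose and 3 fell, with a median of 0.15. That is 28.6% called, near the 32.1% of all genes (16.5% higher and 15.6% lower). POLR3C rose 1.73-fold and GTF3C3 1.55-fold (limma adjusted p = 0.0080 and 0.029). GTF3C4 stood at 80.3 in shYAP1, 66.5 in shYAP3 and 77.4 in NC cells after deprivation, against 135, 133 and 128 in control medium, and fell to 0.567 of control (limma adjusted p = 0.0037).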
